A study of Mus musculus with 4 samples.

Results

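Cdk6, Cdk4, the 3 D-type cyclins and 5 cyclin-dependent kinase inhibitors were followed in single-cell ATAC-seq of mouse LT-HSCs, the long-term hematopoietic stem cells of the bone marrow. The 10 genes were chosen by name, with earlier results of these data known. Their peaks were all those that touched the GRCm38 gene body or the 5000 bp upstream of it, which gave 58 of the 93513 peaks in the table. ATAC-seq counts the cuts that the Tn5 transposase makes in open chromatin, so a peak is a stretch of accessible DNA, and no RNA or protein was measured. The study sorted CLCA3A1high and CLCA3A1low LT-HSCs, which differ in a surface protein read by antibody, from C57BL/6JRj mice aged 22 to 28 months, and both groups were old. No allele or agent was named for them, and each group was 1 sample that pooled 2500 cells from each of 4 mice, 10000 sorted cells in all. Cell barcodes in the table end in 1 or 2, and the labels do not pair these endings with the groups, so the cells are called set 1 and set 2 and no direction between CLCA3A1high and CLCA3A1low is drawn from them.

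CDK4 and CDK6 are kinases that become active when bound to a D-type cyclin. They phosphorylate the retinoblastoma protein, which frees E2F factors and lets a cell pass from G1 into S phase. The INK4 inhibitors bind these kinases directly, whereas the CIP/KIP inhibitors act on complexes of kinase and cyclin. Stem cells of the bone marrow are mostly quiescent, and CDK6 is known for its part in the speed with which they leave this state.

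Set 1 held 818 cells and 13050952 counts, and set 2 held 636 cells and 9820094 counts, with medians of 13358.5 and 12755 counts per cell. Levels are given as CPM, the counts of a peak per 1000000 counts of its set. Peaks of 7 of 8 LT-HSC marker genes were found, with none at Ly6a, and together they summed to 761 CPM in set 1, against 648 CPM for set 2. Mecom alone gave 392 and 332 CPM of these sums. The 95% interval of the log2 ratio, set 1 over set 2, lay above 0 for 5 of the 7 and held 0 for Hlf. It lay below 0 for Fgd5, with 51.0 CPM in set 1 and 64.0 in set 2. The 3 progenitor markers were all found and were lower in set 1, with 76.1 against 144.3 CPM at Flt3, 20.2 against 39.4 at Cd34 and 15.5 against 19.6 at Cd48. Their sums were 112 and 203 CPM, a log2 ratio of -0.86. Of 5 T cell genes, Cd3e, Cd3g and Cd8a had no peak, Cd4 had 5 and 2 counts, and Cd3d had 29.7 and 39.3 CPM at its promoter. The summed B cell, T cell, granulocyte and monocyte, erythroid and megakaryocyte loci had log2 ratios between -0.39 and 0.28. Each group being 1 sample, no test was made, and all 95% intervals given here cover counting error only. Intervals of single levels and of shares of counts are narrower than the true error, because 88.7% of nonzero values were even, as 2 cuts come from each DNA fragment.

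The finding at Cdk6 was a difference within the gene. Its promoter was about equally open in both sets, while its intronic peaks were more open in set 2. The Cdk6 gene (ENSMUSG00000040274.11, chromosome 5, 3341485 to 3531008, plus strand) held 16 peaks, 1 promoter peak and 15 peaks in introns. A promoter peak reaches within 1000 bp of a protein-coding transcription start of its own gene, and the rest are called other peaks unless they lie at the start of another gene. The sequences below are the central 300 bases of 3 intronic peaks, from among those with most counts that were at least 1.5-fold higher in set 2, followed by the 250 bases before the RefSeq start of Cdk6, which lies inside the promoter peak. All are on the plus strand of GRCm38 at chr5:3405155-3405454, chr5:3497639-3497938, chr5:3502098-3502397 and chr5:3343643-3343892. They are named by the distance of the peak from the gene start, and capitals mark a match to a word described after them.
Cdk6 peak at 63.8 kb, intron 3: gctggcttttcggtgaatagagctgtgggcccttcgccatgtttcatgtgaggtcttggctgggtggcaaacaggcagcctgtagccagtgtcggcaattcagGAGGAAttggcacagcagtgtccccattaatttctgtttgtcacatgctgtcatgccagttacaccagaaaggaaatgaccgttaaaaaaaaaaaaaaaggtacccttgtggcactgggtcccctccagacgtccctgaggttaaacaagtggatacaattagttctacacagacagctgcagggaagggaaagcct
Cdk6 peak at 156.3 kb, intron 5: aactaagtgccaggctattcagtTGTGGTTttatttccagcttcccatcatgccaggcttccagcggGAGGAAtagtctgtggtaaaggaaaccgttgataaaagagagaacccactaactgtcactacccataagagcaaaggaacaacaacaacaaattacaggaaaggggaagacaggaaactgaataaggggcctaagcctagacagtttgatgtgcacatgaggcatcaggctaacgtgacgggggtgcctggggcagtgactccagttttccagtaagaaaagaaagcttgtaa
Cdk6 peak at 160.8 kb, intron 5: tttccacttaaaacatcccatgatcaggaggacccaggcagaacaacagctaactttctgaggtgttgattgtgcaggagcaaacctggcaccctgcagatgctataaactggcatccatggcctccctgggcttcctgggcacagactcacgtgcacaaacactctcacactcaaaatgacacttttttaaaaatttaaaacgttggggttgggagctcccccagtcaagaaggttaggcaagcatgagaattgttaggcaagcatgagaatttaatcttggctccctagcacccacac
Cdk6 promoter: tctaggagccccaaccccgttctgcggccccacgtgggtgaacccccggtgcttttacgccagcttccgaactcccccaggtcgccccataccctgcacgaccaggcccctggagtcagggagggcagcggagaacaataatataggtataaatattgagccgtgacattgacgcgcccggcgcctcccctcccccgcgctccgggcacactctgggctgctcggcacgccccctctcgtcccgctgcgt

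Short words of 5 kinds, which bind transcription factors of blood cells, were searched on both strands of the 300 bases centred on each peak. Several intronic Cdk6 peaks were narrower than this, such as that at 14.1 kb with 54 bp, so their windows reached past the peak. The PU-box core GAGGAA, bound by PU.1 and other ETS factors, was in 8 of the 15 intronic Cdk6 windows and in 38.8% of all 63493 other peaks with at least 20 counts. Among all other peaks at least 1.5-fold higher in set 2 the share was 50.8%, and in those higher in set 1 it was 36.1%. In the printed windows it stood at bases 104 to 109 of the 63.8 kb peak and 68 to 73 of the 156.3 kb peak. The longer PU.1 word GAGGAAGT, which contains the core, was in 0 of the 15 and in 7.86% of all other peaks. The RUNX word TGTGGTT was in 4 of the 15 windows against 13.0%, one of them at bases 24 to 30 of the 156.3 kb peak. The AP-1 word TGACTCA was in 3 of the 15 against 9.91%. The GATA word AGATAAG was in 0 of the 15 against 5.16%. The 160.8 kb window and the promoter held none of the words, and the same 250 bases of 32851 RefSeq promoters held GAGGAA in 23.3% and the other words in 2.44% to 4.46%. A match describes the letters of a window, not binding. The promoter stretch was 66.0% G and C and the 3 intronic windows 46.3% to 49.3%.

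The Cdk6 promoter peak, 3887 bp wide and covering exons 1 and 2, had 65.4 CPM (61.0 to 69.9) in set 1 and 62.2 (57.4 to 67.4) in set 2. At least 1 count lay there in 35.0% of set 1 cells and 32.1% of set 2 cells. Set 1 over set 2, the log2 ratio was 0.071 (-0.14 to 0.28), an interval that held 0. Together, the 15 intronic peaks had 52.4 CPM (48.6 to 56.5) in set 1, whereas set 2 had 84.8 (79.2 to 90.8). They were 1.62-fold higher in set 2, with a log2 ratio of -0.69 (-0.89 to -0.50). All 16 peaks together had 117.8 and 147.0 CPM and a log2 ratio of -0.32 (-0.46 to -0.18), between those of the promoter and the introns. The promoter peak took 55.5% of the counts of the locus in set 1 (53.0 to 58.0) and 42.3% in set 2 (39.7 to 44.9).

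**Figure D1:**
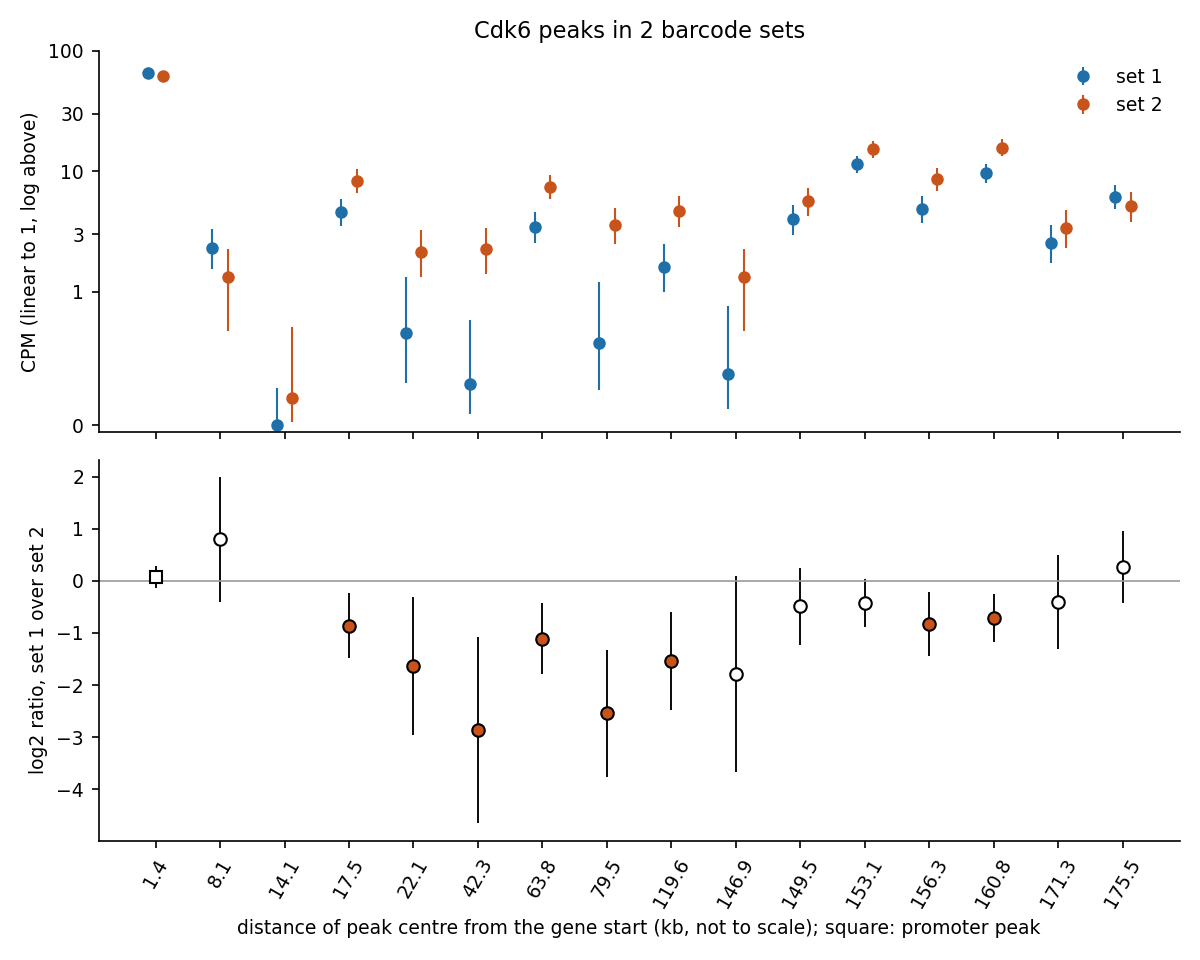
Each of the 16 Cdk6 peaks by the distance of its centre from the gene start in kb (not to scale), with its CPM in set 1 and set 2 above (linear to 1, log above that) and the log2 ratio of set 1 over set 2 below, with 95% counting intervals. Filled points were at least 1.5-fold higher in set 2 with 1 CPM added, and the promoter peak (square) sat at 0.071 while the 8 filled intronic points ran from -0.71 to -2.87, while the peak at 14.1 kb, with 0 and 2 counts, has no ratio.

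Peak by peak, 13 of the 15 intronic peaks had at least 20 counts, and 8 of them were at least 1.5-fold higher in set 2 once 1 CPM was added to both levels, whereas 0 were higher in set 1 by that much. Over all other peaks in the table, 17.9% were higher in set 2 and 17% in set 1 by the same rule. The median log2 ratio of the 13 with 1 CPM added was -0.71, and that of all other peaks tested was 0.028. Of the 13, 11 lay below 0 and 2 above it.

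The widest ratios among the tested peaks were in introns 2 to 4, at low levels. At 79.5 kb, in intron 3, the level was 0.613 CPM in set 1 and 3.56 in set 2, 5.81-fold higher in set 2, from 8 and 35 counts. At 42.3 kb, in intron 2, it was 0.306 and 2.24 CPM, from 4 and 22 counts, and at 119.6 kb, in intron 4, it was 1.61 and 4.68 CPM. All 3 were low in set 1 and their intervals did not reach 0, although few counts lay behind each. The peak at 63.8 kb had 3.45 CPM in set 1 and 7.43 in set 2, a log2 ratio of -1.11 (-1.79 to -0.43). The peak at 17.5 kb had 4.60 and 8.35 CPM, and that at 22.1 kb had 0.690 and 2.14 CPM. In both, fewer cells of set 1 had a count, 4.03% against 6.76% at 17.5 kb and 0.856% against 1.89% at 22.1 kb.

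Intron 5 held a row of 6 peaks between 146.9 and 171.3 kb, and those at 153.1 and 160.8 kb were the most open intronic peaks. The widest, at 160.8 kb (chr5:3501171-3503324, 2154 bp), had 9.58 CPM in set 1 and 15.7 in set 2, with 6.36% and 10.7% of cells open and a log2 ratio of -0.71 (-1.18 to -0.24). Its neighbour at 156.3 kb had 4.83 and 8.55 CPM with a log2 ratio of -0.83 (-1.44 to -0.21). Both were higher in set 2 beyond counting error. The peak at 153.1 kb had 11.4 and 15.3 CPM, that at 149.5 kb 3.98 and 5.60, and that at 171.3 kb 2.53 and 3.36. These 3 were also lower in set 1, by less than 1.5-fold and with intervals that held 0. The exceptions were the intronic peaks nearest to and farthest from the promoter, at 8.1 kb with 2.30 CPM in set 1 and 1.32 in set 2, and at 175.5 kb in intron 6 with 6.13 and 5.09. Both intervals held 0. The remaining 2 peaks were under 20 counts in all, with 5 and 13 counts at 146.9 kb and 0 and 2 at 14.1 kb, where the 0 counts of set 1 allow for up to 3, or 0.230 CPM.

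Cells were then compared one by one. At least 1 intronic Cdk6 peak was open in 259 of 818 cells of set 1, 31.7% (28.5 to 35.0), and in 281 of 636 cells of set 2, 44.2% (40.3 to 48.1). Since a deeper cell shows more open peaks, each cell was also thinned at random to 4899 counts, which left out 69 and 76 shallower cells. Of the thinned cells, 18.6% (15.8 to 21.5) of 749 in set 1 and 27.5% (23.8 to 31.4) of 560 in set 2 had an open intronic peak, so the intervals stayed apart. The promoter was open in 19.9% (17.1 to 22.9) and 22.5% (19.1 to 26.2) of thinned cells, and these intervals overlapped. Most cells with an open intronic peak had 1 of them, and 2 were open in 2.00% of set 1 and 4.82% of set 2.

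**Figure D2:**
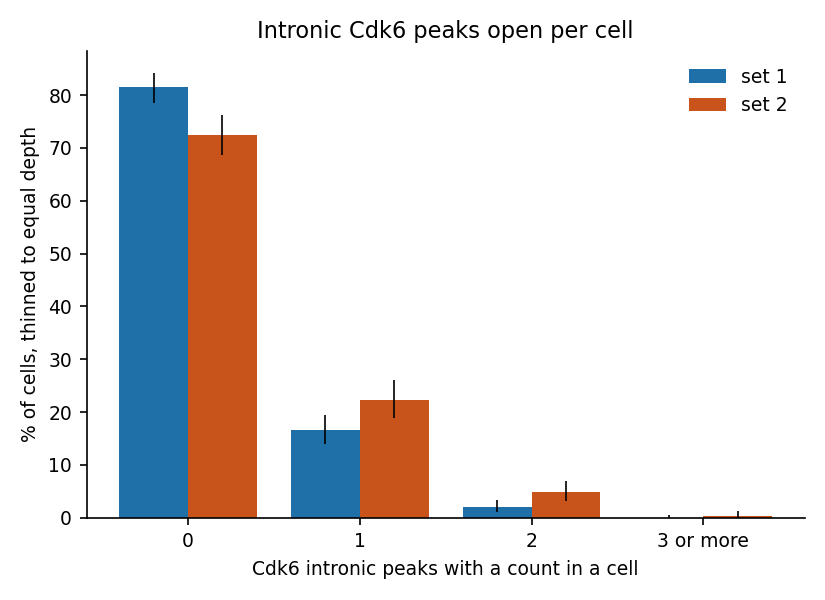
Percent of cells of set 1 (749) and set 2 (560), each thinned to 4899 counts, by the number of intronic Cdk6 peaks with a count in the cell, with exact 95% Clopper-Pearson intervals. The bar for 0 peaks was higher in set 1 (81.4% against 72.5%), and those for 1 and 2 peaks were higher in set 2.

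Cells were also divided by whether their Cdk6 promoter was open. In thinned cells of set 1, an intronic peak was open in 24.8% (18.1 to 32.6) of cells with an open promoter and in 17.0% (14.1 to 20.2) of the rest. In set 2 the shares were 34.9% (26.6 to 43.9) and 25.3% (21.3 to 29.7). Within each set the share was higher where the promoter was open, with overlapping intervals. Set 2 was above set 1 in both kinds of cell, with intervals that overlapped among the cells with an open promoter and did not overlap among the rest.

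The progenitor marker loci and the intronic Cdk6 peaks were both lower in set 1. Among cells with a count at Flt3, Cd34 or Cd48, 400 in set 1 and 394 in set 2, the intronic peaks had 50.4 CPM (45.6 to 55.6) against 91.6 (84.8 to 98.7), giving a log2 ratio of -0.86 (-1.10 to -0.63). Among cells with no count there, 418 and 242, they had 55.6 (49.3 to 62.5) and 63.1 (53.3 to 74.2), a log2 ratio of -0.18 (-0.56 to 0.19). At the promoter it was 0.035 (-0.22 to 0.29) in the first cells and 0.21 (-0.20 to 0.62) in the second. The whole Cdk6 locus had a ratio of 0.015 in the cells without such counts. With every cell thinned to 4899 counts before the division, which changes the cells that have none, 515 and 279 cells had no count at the 3 loci. Their intronic ratio was -0.49 (-0.92 to -0.058), their promoter ratio -0.15 (-0.60 to 0.31) and their locus ratio -0.32. In the thinned cells with such counts, 234 and 281, the intronic ratio was -0.79 (-1.25 to -0.33). The intronic peaks were higher in set 2 in each of these divisions, and without progenitor counts the interval held 0 at full depth and did not when thinned. At full depth, cells without such counts were shallower, with medians of 10199.5 and 8064 counts against 16947 and 16659, and the part of progenitor-like cells in the Cdk6 difference was not tested.

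A promoter and intronic peaks that part in this way were not particular to Cdk6. The gap, the log2 ratio of the other peaks minus that of the promoter, was -0.77 (-1.05 to -0.48) at Cdk6. Among 7393 protein-coding genes with at least 100 counts in both classes the median gap was -0.011 and the 5th to 95th percentiles were -0.97 and 0.94, and 8.66% had a gap at or below that of Cdk6. Gaps were narrower where many peaks were summed. Among the 472 genes with at least 15 other peaks the percentiles were -0.68 and 0.43, and 17 genes, 3.60%, lay at or below Cdk6. The genes whose pair of ratios was nearest to that of Cdk6, among 2624 with at least 5 other peaks, were Pcnt, Slc37a1, Galm, Tbc1d5 and Il6ra, at distances of 0.021 to 0.043 on the log2 scale.

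**Figure D3:**
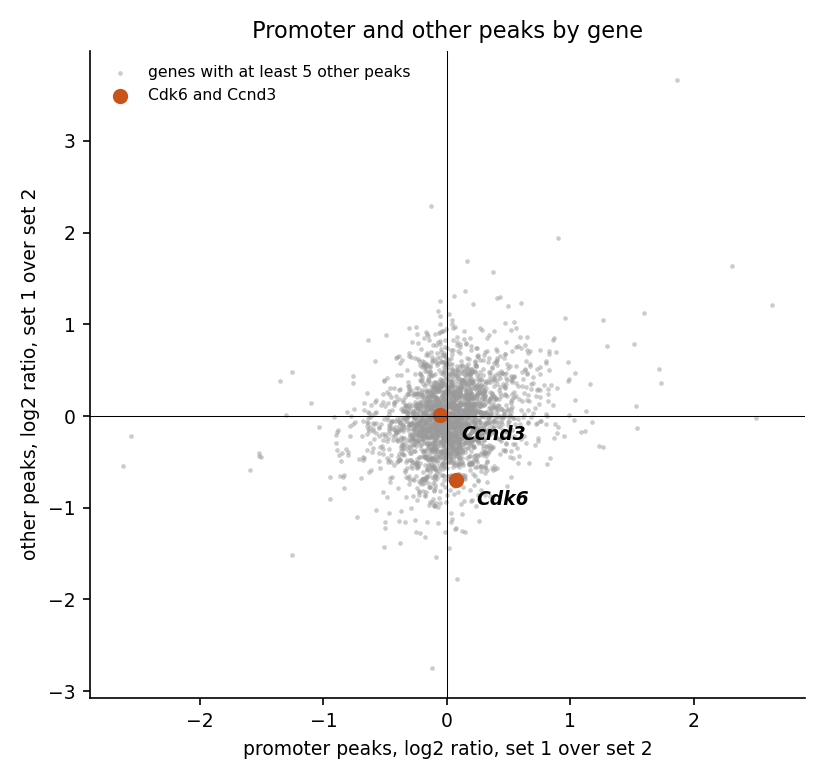
Log2 ratio of set 1 over set 2 in the promoter peaks (horizontal) and in the other peaks (vertical) of each of 2624 genes with at least 5 other peaks, with Cdk6 and Ccnd3 marked. Cdk6 lay at 0.071 and -0.69, below the centre of the cloud, and Ccnd3 near the centre.

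None of the 10 genes differed by 1.5-fold as a whole. Over 16988 gene loci with at least 20 counts, 5.56% were higher in set 1 and 4.33% in set 2 by that fold. The counting interval of the locus ratio lay above 0 for 1 member, Ccnd2, and below 0 for 2, Cdk6 and Cdk4, while 15.4% of all loci had an interval above 0 and 15.5% one below, so these counts were near the background. The median log2 ratio of the 10 loci was -0.099 and that of all loci 0.0038. Gapdh and Actb, taken as reference genes, had -0.057 and -0.056.

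**Figure D4:**
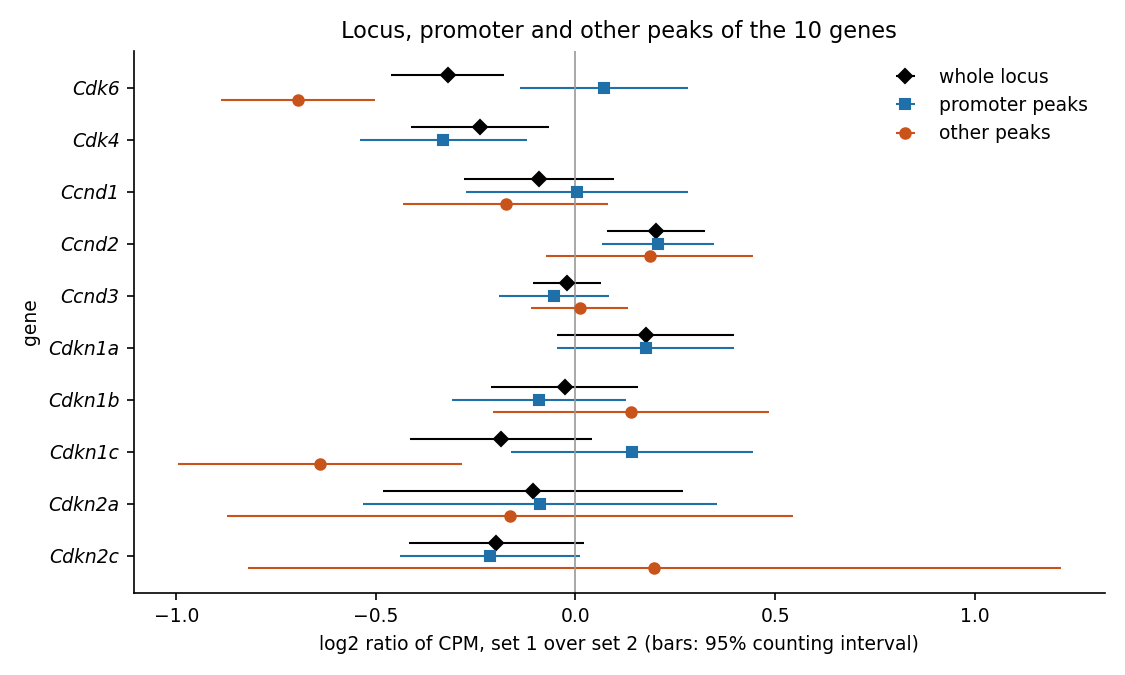
Log2 ratio of CPM, set 1 over set 2, for the whole locus, the promoter peaks and the other peaks of each of the 10 genes, with 95% counting intervals, where the class had at least 20 counts. The promoter and other peaks were apart at Cdk6 and at Cdkn1c, and overlapped within their intervals at the other genes with both classes.

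Cdk4, the close relative of Cdk6 that also pairs with D-type cyclins, differed at its promoter. The Cdk4 gene (chromosome 10, 127063534 to 127067920, plus strand) is short, and its promoter peak over exons 1 to 4 had 57.2 CPM (53.1 to 61.4) in set 1 and 71.9 (66.7 to 77.4) in set 2. Cells with a count there made up 30.3% and 36.8%, and the log2 ratio was -0.33 (-0.54 to -0.12). The difference was thus beyond counting error but under 1.5-fold. The upstream peak at the start of its neighbour March9 had 28.0 and 28.2 CPM, almost the same in both sets. A small peak in exon 8 had 2 and 6 counts. The log2 ratio of the whole Cdk4 locus, -0.24 in all cells, was -0.14 when thinned. In cells with no count at Flt3, Cd34 and Cd48 it was -0.022 when thinned and -0.17 at full depth. The promoter ratio in those cells was -0.19 and -0.35.

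The 3 D-type cyclins, the partners that switch these kinases on, went different ways. Ccnd2 (chromosome 6, 127125162 to 127152193, minus strand) was slightly higher in set 1. Its promoter peak, 7009 bp wide, had 157.3 CPM (150.6 to 164.3) in set 1 and 136.4 (129.1 to 143.9) in set 2, with 60.3% and 52.4% of cells open and a log2 ratio of 0.21 (0.066 to 0.35). Its other peaks had 44.4 and 39.0 CPM, a log2 ratio of 0.19 (-0.074 to 0.45), so both classes moved alike. In cells with no count at Flt3, Cd34 and Cd48 the locus ratio, 0.20 in all cells, was 0.15 when thinned and -0.0061 at full depth. The 2 larger of them, at 9.3 kb and 4.2 kb, had 25.6 against 24.2 CPM and 18.0 against 14.0 CPM, and the peak at 6.0 kb had 10 and 8 counts.

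Ccnd1 (chromosome 7, 144929931 to 144939925, minus strand) did not differ beyond counting error. Its promoter peak had 36.2 CPM in both sets, with a log2 ratio of 0.0037 (-0.27 to 0.28). A wide upstream peak at -2.6 kb had 35.0 CPM in set 1 and 39.6 in set 2, with an interval of the ratio that held 0. Small peaks at 8.0 and 4.2 kb had 2.07 against 2.44 CPM and 1.84 against 2.14 CPM.

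Ccnd3 (chromosome 17, 47505051 to 47599691, plus strand) had as many peaks as Cdk6, most of them in its first intron, and its total was nearly equal in the sets. The promoter peak at its first start had 16.7 CPM in set 1 and 21.2 in set 2, and a second one at 90.3 kb, over exons 3 to 7, had 130.3 and 131.4. Summed, the promoters had a log2 ratio of -0.053 (-0.19 to 0.085) and the 13 other peaks 0.010 (-0.11 to 0.13). Single peaks of intron 1 nonetheless moved in opposite directions. The peaks at 62.4 kb and 52.0 kb were higher in set 1, with 7.43 against 3.26 CPM and 6.67 against 3.87 CPM. The peak at 37.7 kb was higher in set 2, with 6.05 against 11.5 CPM. Those 3 of 12 tested other peaks were past 1.5-fold, 2 in set 1 and 1 in set 2, beside the 17% and 17.9% of all other peaks given above. The most open intronic peaks, at 3.4, 17.1 and 6.6 kb, had 49.9 against 51.0, 43.5 against 51.5 and 35.2 against 34.1 CPM, and all 3 intervals of the ratio held 0. The upstream peak at the start of Taf8 had 51.1 and 52.9 CPM.

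The CIP/KIP inhibitors, which hold kinase and cyclin complexes inactive, were mostly alike at their promoters. Cdkn1a, a target of p53 that encodes the CIP1 inhibitor (chromosome 17, 29090976 to 29100727, plus strand), had 2 promoter peaks that moved apart. The large one had 59.2 CPM in set 1 and 49.6 in set 2, with a log2 ratio of 0.25 (0.024 to 0.49). The small one, at 8.2 kb over exon 3, had 2.15 and 4.68 CPM, from 28 and 46 counts, and was at least 1.5-fold higher in set 2. It was the only one of 13 promoter peaks of the members past that fold, 0 being so in set 1, where 5.11% of all promoter peaks were higher in set 2 and 6.17% in set 1. With a promoter window of 500 bp in place of 1000 bp, only the large peak counted as promoter, with its ratio of 0.25.

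Cdkn1b, which encodes KIP1 (chromosome 6, 134920401 to 134925513, plus strand), had 57.1 CPM in set 1 and 60.8 in set 2 at its promoter, with a log2 ratio of -0.091 (-0.31 to 0.13). Its upstream peak at -3.3 kb had 20.3 and 16.8 CPM, and a peak at 2.6 kb had 3.14 and 4.48. No interval of these ratios left 0 out.

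Cdkn1c, which encodes KIP2 and is an imprinted gene linked to stem cell quiescence (chromosome 7, 143458339 to 143461050, minus strand), was the other member whose promoter and outer peak parted. Its promoter had 32.3 CPM in set 1 and 29.3 in set 2, a log2 ratio of 0.14 (-0.16 to 0.44). Its upstream peak at -3.9 kb, 3682 bp wide, had 17.8 CPM (15.6 to 20.2) in set 1, against 27.7 (24.5 to 31.2) in set 2. That was 1.56-fold higher in set 2, a log2 ratio of -0.64 (-0.99 to -0.28), and 11.9% and 14.9% of cells had a count. The gap was -0.78 (-1.25 to -0.31), as wide as at Cdk6 but from a single outer peak.

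Among the INK4 inhibitors, which bind CDK4 and CDK6 and keep cyclin D from joining them, Cdkn2c and Cdkn2a had ratios within counting error. Cdkn2c, which encodes INK4C (chromosome 4, 109660876 to 109667189, minus strand), had 51.3 CPM in set 1 and 59.6 in set 2 at its promoter, with a log2 ratio of -0.21 (-0.44 to 0.010). Its upstream peak at -3.1 kb had 2.45 and 2.14 CPM. Cdkn2a, a locus that encodes both INK4A and ARF from separate starts and is kept low in healthy cells (chromosome 4, 89274471 to 89294653, minus strand), was the least counted member. It had 221 counts in set 1 and 179 in set 2 over 5 peaks, 16.9 and 18.2 CPM, with a log2 ratio of -0.11 (-0.48 to 0.27). The promoter peak at its first start had 12.1 and 12.0 CPM, and that at 12.5 kb had 0.919 and 1.83 CPM from 12 and 18 counts. Its other peaks at 18.3, 19.4 and 8.8 kb held 26 against 21, 13 against 16 and 12 against 6 counts.

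Apart from Cdk6, the other 9 genes had 23 other peaks with at least 20 counts, of which 2 were at least 1.5-fold higher in set 2, a share of 8.70%, and 2 in set 1. Their median log2 ratio with 1 CPM added was -0.032. At Cdk6 the share higher in set 2 was 61.5%, or 8 of 13, against 17.9% of all other peaks. The peaks of 1 gene share their cells and are not independent replicates, so these shares describe the table.

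**Figure D5:**
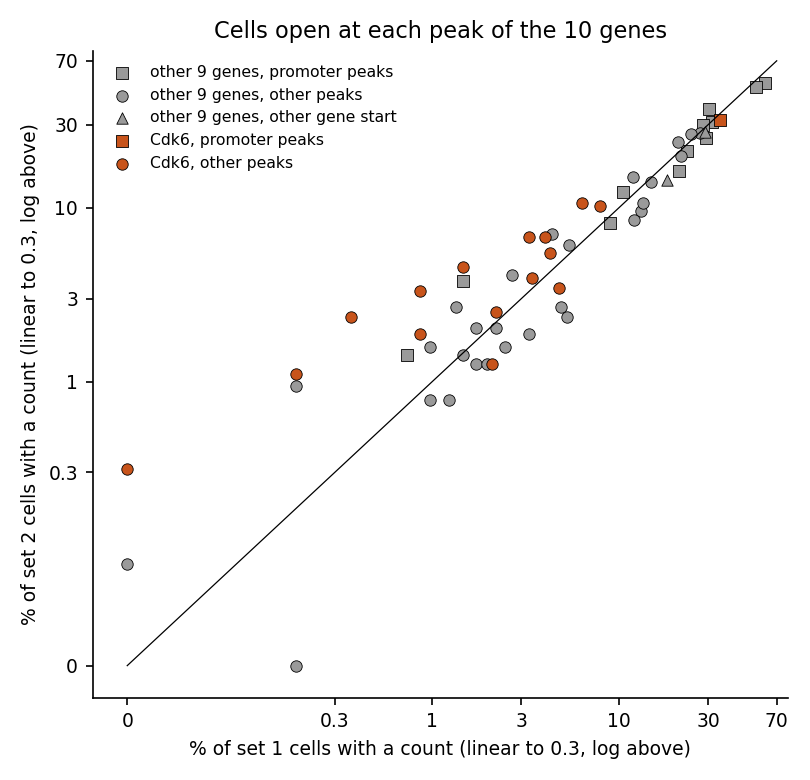
Percent of set 1 cells (horizontal) and of set 2 cells (vertical) with at least 1 count at each of the 58 peaks, on axes linear to 0.3 and logarithmic above, with a line of equal shares. Of the 15 intronic Cdk6 peaks, 13 lay above the line, and the widely open promoter peaks lay close to it.

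Beyond the members, 35 other cell cycle genes were read in the same way, among them E2F factors, retinoblastoma proteins, later cyclins and CDC25 phosphatases. None of the 35 loci was past 1.5-fold as a whole. Their intervals lay above 0 for 3 genes and below 0 for 4, where 15.4% and 15.5% of all gene loci did so. These counts were thus not above the background. The median log2 ratio of the 35 was -0.0078. The lowest was E2f8, a repressor of the E2F family, with 60.8 CPM in set 1 and 78.3 in set 2 (log2 ratio -0.36, -0.57 to -0.16). The highest was Cdkn2b, the INK4B inhibitor gene beside Cdkn2a, with 31.4 and 24.8 CPM (0.34, 0.021 to 0.66). Trp53, the p53 gene, also had an interval above 0, with 103.7 and 85.2 CPM (0.28, 0.11 to 0.46). So did Cdkn2d, the INK4D inhibitor gene, with 235.2 and 216.2 CPM (0.12, 0.0092 to 0.23). Of the 35, 15 had at least 100 counts in both promoter and other peaks, and the median gap was 0.14. The gap was at or below that of Cdk6 in 3 of them, named here after their values were seen. It was -2.52 (-3.38 to -1.67) at Tfdp1, a partner of E2F factors, from 2 other peaks, -1.25 (-1.74 to -0.75) at E2f3 from 6, and -0.87 (-1.60 to -0.13) at Mnat1, a subunit of the CDK-activating kinase, from 3. In the other direction, the gap at E2f8 was 1.12 (0.43 to 1.80) from 2 other peaks, also farther from 0 than at Cdk6.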

How the data were processed

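Single-cell ATAC-seq counts per peak and cell barcode were used as the authors deposited them, from Cell Ranger ATAC 1.2.0 and mm10 (GRCm38) per the submitters' processing notes. No normalization was applied to the deposited counts. The 2 samples named for this table are 1 CLCA3A1high and 1 CLCA3A1low sample, and the barcode ending was not assigned to either. A second table, whose rows carry no peak names, was not used. Peaks were assigned to genes with GENCODE release M21, and peak ends lay within the GRCm38 chromosomes. Counts were scaled to CPM per set, with exact Poisson intervals for levels, exact Clopper-Pearson intervals for shares, and ratio intervals from estimated fragments (counts halved and rounded up per cell and peak). Calls needed 1.5-fold with 1 CPM added and at least 20 counts. No cell was removed and no doublet caller was run, and 57 cells exceeded 3 times the median count. No barcode without its ending was shared by both sets. The sequence of 1 further window is not reported here. The members and lists were chosen with earlier results of these data known. Named peaks were all promoter and Cdk6 peaks and, at other genes, the 3 most counted other peaks and any past 1.5-fold. Alternatives covered once-per-cell counting, thinning, scaling, cell and peak filters, windows and progenitor-free cells. The calculations were tested on simulated counts and used Python 3.11.15, numpy 2.4.6, scipy 1.17.1 and pandas 2.3.3.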

Additional observations from a re-analysis of the deposited data

How the results depend on the processing

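Thinning cells to 4899 counts at random moved the Cdk6 locus from -0.32 to -0.49 and its promoter from 0.071 to -0.23, with -0.73 for the intronic peaks and -0.49 for the gap. Weighting every cell of that depth equally, with no random draw, gave -0.38 for the locus, 0.022 for the promoter, -0.76 for the intronic peaks and -0.78 for the gap. This alternative, leaving out single peaks, and progenitor-free cells at their own depth were chosen after seeing the data. In cells with no count at Flt3, Cd34 and Cd48, thinned, the locus was at -0.32, the promoter at -0.15, the intronic peaks at -0.49 and the gap at -0.34, and Ccnd2 kept its direction, with 0.15 for both locus and promoter. Cells with no count there at their own depth, which are not all the same cells, gave 0.015 for the Cdk6 locus, -0.18 for its intronic peaks and -0.40 for the gap, and turned the Ccnd2 locus to -0.0061 and its promoter to -0.026. Member peaks past 1.5-fold, 2 in set 1 and 11 in set 2, became 1 and 5 after thinning, and 0 and 3 at 2-fold. In set 1 they became 4 without cells over 3 times the median and 6 with a pseudocount of 0.1 CPM. Thinning and the choice of cells leave fewer counts, and otherwise the cause was not tested. Leaving out any single intronic Cdk6 peak left their ratio between -0.78 and -0.65. Of 339 alternative values over all members, 3 reversed the direction of a ratio whose interval left out 0. Another 46 moved beyond the counting interval or by over 1.5 times, and 290 did neither. Some of the 290 could not change, as where a 500 bp window kept the same Cdk6 promoter peak. Some of the 46 were shares of open cells, which thinning lowers in any case. The tally is therefore no measure of how firm the results are. Changes of sign in ratios whose interval held 0, such as that of the Cdk6 promoter when thinned, were not counted as reversals. No paired analysis was possible because each group has 1 sample. Depth limits single intronic peaks most, since several rest on under 50 counts.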
